A study of Mus musculus with 8 samples.

Results

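The genes described here are the 6 that encode the subunits of mitochondrial complex II (Sdha, Sdhb, Sdhc and Sdhd) and its assembly factors Sdhaf1 and Sdhaf2. They were chosen by symbol, whatever their values, and all 6 were found among the 22485 gene symbols placed on the array, on 8 of 33026 named spots. Sdhb and Sdhc had 2 spots each, which carry the same accession within a gene (NM_023374 for Sdhb, NM_025321 for Sdhc), and the other genes had 1 spot.

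Complex II, or succinate dehydrogenase, oxidizes succinate to fumarate in the tricarboxylic acid cycle and passes the electrons to ubiquinone in the inner mitochondrial membrane, so that it belongs to the cycle and to the respiratory chain at once. SDHA holds the flavin cofactor and the succinate site, SDHB carries the electrons over iron-sulfur clusters, and SDHC and SDHD anchor the enzyme in the membrane, where they help form the ubiquinone site. SDHAF2 is needed to attach the flavin to SDHA and SDHAF1 to insert iron-sulfur clusters into SDHB. In people, inherited mutations in subunit genes and in SDHAF2 predispose to paraganglioma and to pheochromocytoma, a tumor of the catecholamine-secreting chromaffin cells of the adrenal medulla.

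Adrenal medulla (AM) was dissected away from the cortex of male mice on a 129/SvJ background, and its RNA was hybridized on 8 two-color oligonucleotide arrays, 4 of SDHD-ESR and 4 of +/- animals. SDHD-ESR mice have a floxed SdhD allele over a null one and a Cre recombinase that tamoxifen activates, +/- mice are littermates with the same SdhD alleles but no Cre, and +/+ mice are littermates with a floxed and a wild-type allele and no Cre. The sources used here do not say which promoter drives Cre, and hence in which cells it is active. The mice had been injected at 9 weeks with 100 µg/g tamoxifen daily for 4 days and were killed 1 week after the first injection, at 10 weeks. Each array held RNA of 2 mice in Cy5, so 8 mice stand behind each group, and was set against 1 pool of RNA from 8 +/+ mice in Cy3. Every value below is a log2 ratio to that pool on an array, where 0 means the same signal as the pool. No dyes were swapped, so a ratio to the pool keeps any dye bias. In SDHD-ESR minus +/-, a dye bias that is the same on every array cancels, and one that differs between arrays does not. As 1 control sample, the pool carries no information on the spread among +/+ animals. Replicates 1 and 2 of both groups shared slide 1, and replicates 3 and 4 shared slide 2.

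The arrays differed in ways that touch these genes. The median over all named spots lay between -0.11 and 0.15 on the SDHD-ESR arrays and between -0.20 and 0.36 on the +/- arrays, and among the +/- arrays both of slide 1 were lower than both of slide 2. On the array of SDHD-ESR replicate 1, 38.4% of the lines of the spot grid held values that belonged to the neighboring line, 38.4% were in place, and 23.3% could not be assigned to either state. Sdhd, Sdha, Sdhaf1 and the second Sdhb spot lay in lines that were in place, the first Sdhb spot and Sdhaf2 in displaced lines, and both Sdhc spots in lines of the unassigned kind. The differences of those 4 spots are given also without that array or with its lines moved back. The files hold ratios but no fluorescence intensities, so the level of a gene, its signal over background and the presence of the defining markers of chromaffin cells could not be read from them.

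The member with the largest difference between the groups was Sdhd, and the stretch of genome that holds its start is shown first. The gene lies at chr9:50596340-50603849 of GRCm38.p6 (RefSeq), on the minus strand, and its start is 52 bases from that of Timm8b, a gene for a mitochondrial import chaperone that is read in the other direction. The window from 250 bases before to 50 after the start of Sdhd (chr9:50603800-50604099, minus strand) is printed 5′ to 3′ along Sdhd, with the sequence CTTCCGG in capitals. These letters are the reverse complement of CCGGAAG, a core recognized by ETS-family factors such as GABPA, which is known for its sites in promoters of respiratory chain genes.

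Sdhd: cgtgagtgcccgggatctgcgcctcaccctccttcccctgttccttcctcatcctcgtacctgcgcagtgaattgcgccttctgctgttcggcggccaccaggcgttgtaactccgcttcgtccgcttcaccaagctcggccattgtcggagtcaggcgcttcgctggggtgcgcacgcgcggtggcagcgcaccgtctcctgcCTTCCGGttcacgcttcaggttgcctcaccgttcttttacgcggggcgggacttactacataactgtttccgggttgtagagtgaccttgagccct

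The core begins at position -46 from the start site (position 0) of Sdhd. RefSeq promoter windows were at hand for 5 of the 6 genes, all but Sdhc. Searched on both strands, CCGGAAG was found in 4 of these 5 windows (Sdhb, Sdhd, Sdhaf1 and Sdhaf2) and in 8.86% of all 32851 windows of the same length. The SP1 core GGGCGG was also in 4 of the 5, against 35.7% of all windows, the NRF-1 core GCATGCGC in that of Sdhb alone (2.71% of all windows), and the TATA box TATAAA in none of the 5 (13.6% of all windows). The surroundings of the ETS core in the other 3 genes are set out for comparison (chr4:140961260-140961300, plus strand, for Sdhb; chr7:30322345-30322385, minus strand, for Sdhaf1; chr19:10525170-10525210, minus strand, for Sdhaf2). Sdhaf2 had another copy, which begins at position -158.

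Sdhb: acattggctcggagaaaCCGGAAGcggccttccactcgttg

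Sdhaf1: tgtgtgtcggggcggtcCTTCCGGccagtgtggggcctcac

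Sdhaf2: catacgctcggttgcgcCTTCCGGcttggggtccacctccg

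In these genes the core begins 6, 7 and 16 bases past the start site, in the order shown. A match of letters is a description of the window and not evidence of a bound factor. No test linked these motifs to the ratios.

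Sdhd (NM_025848), the anchor subunit whose gene Cre deletes, read at a few percent of the +/+ pool in SDHD-ESR AM and below the pool in +/- AM. Its log2 ratio was -5.00, -6.19, -5.26 and -4.86 on the 4 SDHD-ESR arrays, against -1.10, -2.25, -0.74 and -0.29 on the 4 +/- arrays. Every SDHD-ESR array was lower than every +/- array, and all 8 arrays read under the +/+ pool. On a linear scale the SDHD-ESR arrays read 3.13%, 1.37%, 2.61% and 3.44% of the pool's signal and the +/- arrays 46.5%, 21.1%, 60.0% and 81.8%. The group means were -5.33 ± 0.60 in SDHD-ESR and -1.09 ± 0.84 in +/- (SD, n = 4 each), equal to 2.49% and 46.8% of the pool. In bulk tissue, fewer cells of a type and less RNA per cell cannot be told apart, and these percentages are averages over the cells of the AM. The paper took the fall of SdhD in both genotypes as an internal control. The sources used here do not place the Sdhd probe relative to the deleted exons.

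The difference SDHD-ESR minus +/- of Sdhd was -4.23 (SE 0.47, 95% interval -5.33 to -3.14), an SDHD-ESR signal of 5.32% of that in +/-. It was the lowest of all 28073 spots tested, ahead of 5430437J10Rik (-4.01), Mybph (-3.36) and a Serpina3a spot (-3.25), which are named only to place it. An exact permutation test over the 8 arrays gave p = 0.0286, two-sided, the smallest that 4 against 4 arrays allow. In limma the unadjusted p was 2.57e-05, the third smallest of all spots, and the adjusted p over all spots was 0.225. At an adjusted p of 0.05, 0 of the 28073 spots were called (0%), Sdhd included, and at an unadjusted 0.05 limma marked 1294 spots (4.61%), among them 1 of the 8 complex II spots, that of Sdhd. Groups as cleanly apart in this direction, with every SDHD-ESR array below every +/- array, were seen in 1.33% of the 22801 spots with a value on all arrays, and among the 8 complex II spots in Sdhd alone.

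**Figure D1:**
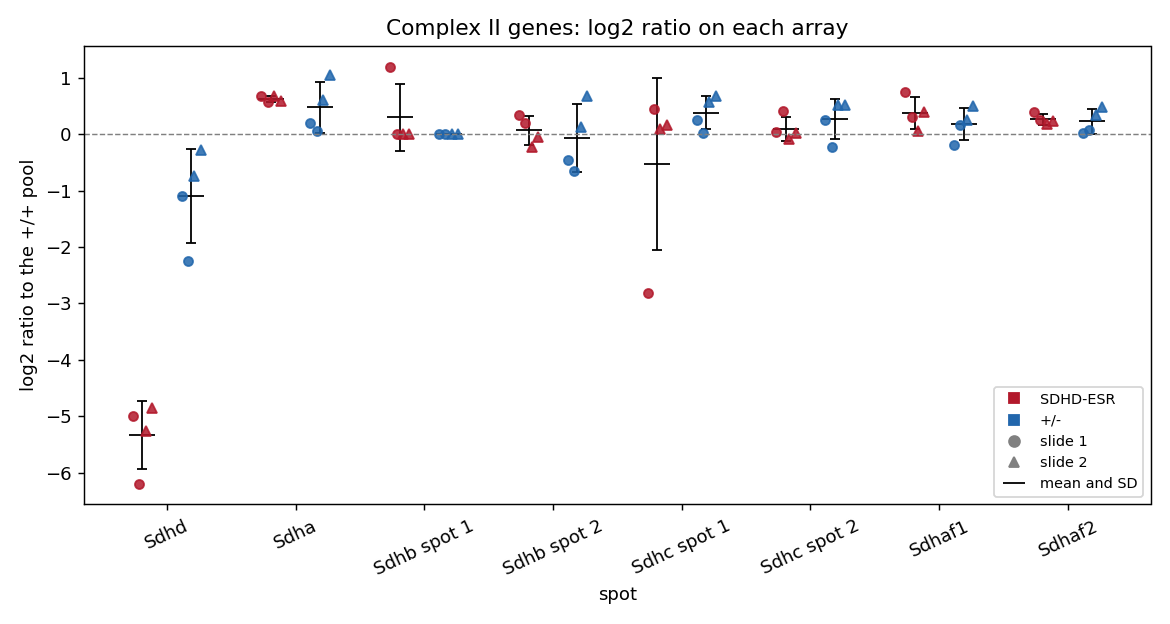
Log2 ratio to the +/+ pool (vertical axis) of each complex II spot (horizontal axis) on each array, with SDHD-ESR arrays in red to the left of +/- arrays in blue, circles for slide 1 and triangles for slide 2, and the mean and SD of 4 arrays in black. Sdhd lies between -6.19 and -4.86 on the SDHD-ESR arrays and between -2.25 and -0.29 on the +/- arrays, while the other spots lie between -0.66 and 1.05 except on SDHD-ESR replicate 1, where the first Sdhb spot reads 1.19 and the first Sdhc spot -2.81.

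Against the +/+ pool, Sdhd was called in SDHD-ESR, with a mean of -5.33 (SE 0.33, limma adjusted p = 0.0111). It had the lowest mean and the smallest p of all spots, and was 1 of 12 spots called in that comparison (0.0427% of 28073; 2 lower and 10 higher, or 83 lower and 149 higher with each array centred on its median). It was the 1 complex II spot called of 8. The call was lost in 6 of 21 alternatives, and over all 21 the adjusted p ran from 0.000806 to 0.339. It was lost in 4 of the 8 fits that left out 1 array (SDHD-ESR replicate 1, 3 or 4, or +/- replicate 3), with adjusted p of up to 0.111. The adjusted p was 0.295 with each group's arrays alone and 0.339 with an ordinary test of each spot in place of limma. The paper lists Sdhd in SDHD-ESR AM at a false discovery rate well below 0.05, and does not name the test used for the arrays. In +/- AM, which has 1 functional allele, the mean of -1.09 (SE 0.33, 95% interval -1.87 to -0.32) had an unadjusted p of 0.0118 and an adjusted p of 0.167. No spot was called in +/- against the pool (0% of 28073 by limma), and 5320 passed an unadjusted 0.05. Sdhd was the 1 complex II spot of 8 that was lower in +/- at an unadjusted 0.05, as were 5.75% of all spots. Among the +/- arrays the Sdhd ratio ran from 21.1% of the pool on replicate 2 to 81.8% on replicate 4.

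That range narrowed when Sdhd was read against its partner subunits on the same array. Subtracting the mean of Sdha and the second Sdhb spot, a pair picked after the values were seen because their lines were in place, left Sdhd at -5.51, -6.57, -5.47 and -5.13 on the SDHD-ESR arrays and at -0.97, -1.95, -1.10 and -1.16 on the +/- arrays. The groups stayed apart, and 3 of the 4 +/- arrays then lay within 0.18 of each other. Within slides, SDHD-ESR minus +/- was -3.92 on slide 1 and -4.55 on slide 2, and the slide-by-genotype term of Sdhd in limma had an adjusted p of 0.659.

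**Figure D2:**
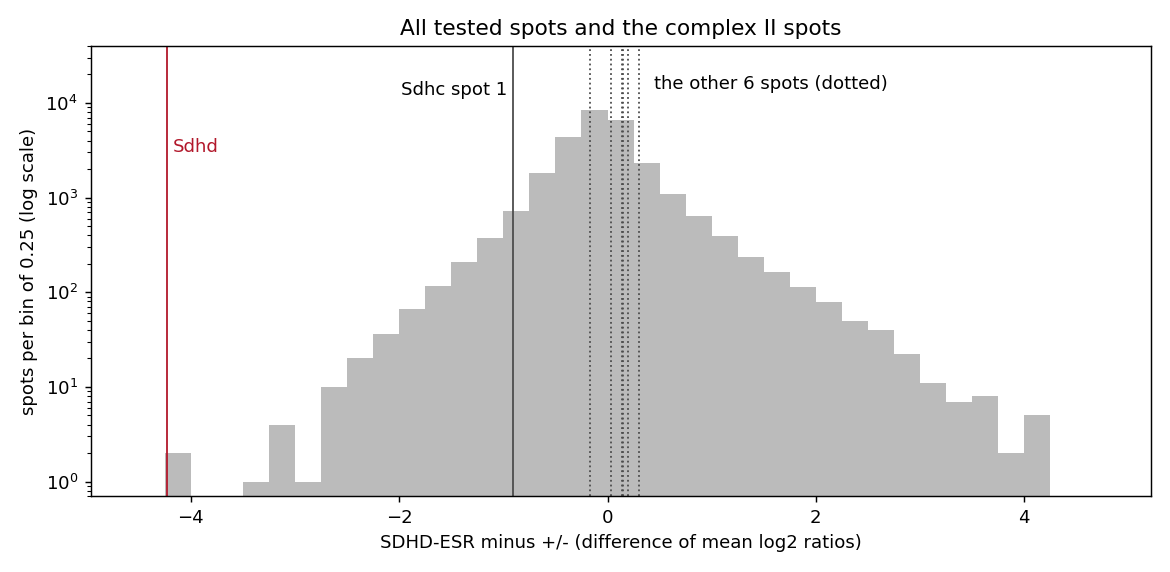
Number of spots (vertical axis, log scale) by the difference of mean log2 ratios, SDHD-ESR minus +/- (horizontal axis, bins of 0.25), over all 28073 spots tested, with lines at the 8 complex II spots. Sdhd, at -4.23, lies at the lower edge of all spots, the first Sdhc spot at -0.91, and the other 6 between -0.17 and 0.30.

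Sdha (NM_023281; chr13:74322255-74350240), the flavoprotein that takes up succinate, read above the pool on all 8 arrays. Its log2 ratio was 0.68, 0.56, 0.67 and 0.59 on the SDHD-ESR arrays, against 0.19, 0.06, 0.60 and 1.05 on the +/- arrays. The SDHD-ESR arrays fell within a narrow band inside the range of the +/- arrays, so the groups overlapped. The means were 0.62 ± 0.06 in SDHD-ESR and 0.48 ± 0.45 in +/- (SD, n = 4 each), or 154% and 139% of the pool. Their difference was 0.15 (SE 0.23, 95% interval -0.38 to 0.68), with p = 0.514 in the exact permutation test and an adjusted p of 0.963 in limma. Against the pool, Sdha had an unadjusted p of 0.00526 in SDHD-ESR (adjusted 0.148) and of 0.0195 in +/- (adjusted 0.193), and was called in neither. Its mean exceeded that of 96.3% of spots in SDHD-ESR and that of 92.6% in +/-.

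Sdhb, the iron-sulfur subunit (chr4:140961271-140979198), gave values that depend on the spot. The second spot read 0.35, 0.20, -0.24 and -0.05 on the SDHD-ESR arrays, against -0.45, -0.66, 0.12 and 0.68 on the +/- arrays. The +/- arrays of slide 1 lay below all SDHD-ESR arrays and that of +/- replicate 4 above them, so the groups overlapped. The difference of the means, 0.06 ± 0.26 in SDHD-ESR and -0.08 ± 0.60 in +/- (SD, n = 4 each), was 0.14 (SE 0.31, 95% interval -0.58 to 0.86; exact permutation p = 0.686).

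The first Sdhb spot read 1.19 on SDHD-ESR replicate 1 and between -0.01 and 0.00 on the other 7 arrays of both groups. It lay in a displaced line, and the value found one line on, -0.01, falls with the other arrays. With the lines moved back its difference was 0.00 (SE 0.09), in place of 0.30 (SE 0.29). A flat reading of this kind, within 0.01 of 0 on at least 7 arrays, was seen in 451 named spots. They included 5 of 22 spots of chromaffin markers (Th, Dbh, Chgb, Scg2 and Cyb561), 6 of 15 of adrenal cortex markers, and 13 of 44 spots of complex I genes. Why these spots read 0 was not tested, and the first Sdhb spot carries no usable comparison of the groups.

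Sdhc (chr1:171129157-171150640), the partner of SDHD in the membrane anchor, also differed between spots. The second spot read 0.04, 0.41, -0.09 and 0.02 on the SDHD-ESR arrays, against 0.25, -0.24, 0.52 and 0.51 on the +/- arrays. The groups overlapped, and 3 of the 4 SDHD-ESR arrays read within 0.1 of the pool. Its means were 0.09 ± 0.22 in SDHD-ESR and 0.26 ± 0.36 in +/- (SD, n = 4 each), a difference of -0.17 (SE 0.21, 95% interval -0.67 to 0.33; exact permutation p = 0.457). Without SDHD-ESR replicate 1 the difference was -0.15.

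The first Sdhc spot read -2.81, 0.45, 0.08 and 0.16 on the SDHD-ESR arrays, against 0.25, 0.02, 0.56 and 0.67 on the +/- arrays. The low value on SDHD-ESR replicate 1 stood alone, in a line that could not be assigned. The value found one line on, 0.37, lay within the range of the other 7 arrays (0.02 to 0.67). The low value sets the difference of -0.91 (SE 0.70, 95% interval -2.53 to 0.72; exact permutation p = 0.229), which without that array was -0.15. The mean of the first Sdhc spot was -0.53 ± 1.53 in SDHD-ESR and 0.38 ± 0.29 in +/- (SD, n = 4 each).

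Of the assembly factors, Sdhaf1 (NM_001033140; chr7:30321409-30322375), which serves the iron-sulfur clusters of SDHB, read 0.75, 0.31, 0.06 and 0.40 on the SDHD-ESR arrays, against -0.18, 0.17, 0.25 and 0.50 on the +/- arrays. The highest reading was in SDHD-ESR and the lowest in +/-, with the rest intermixed. The means were 0.38 ± 0.29 in SDHD-ESR and 0.18 ± 0.28 in +/- (SD, n = 4 each), a difference of 0.20 (SE 0.21, 95% interval -0.29 to 0.68; exact permutation p = 0.371).

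Sdhaf2 (NM_025333; chr19:10500512-10525209), which serves the flavin of SDHA, read 0.40, 0.25, 0.17 and 0.23 on the SDHD-ESR arrays, against 0.01, 0.06, 0.35 and 0.48 on the +/- arrays. As for Sdha, the +/- arrays of slide 1 lay below and the highest +/- array of slide 2 above all SDHD-ESR arrays. The means were 0.26 ± 0.10 in SDHD-ESR and 0.22 ± 0.22 in +/- (SD, n = 4 each), a difference of 0.04 (SE 0.15, 95% interval -0.32 to 0.39; exact permutation p = 0.8). With the displaced lines of SDHD-ESR replicate 1 moved back, the value there was 0.59 and the difference 0.08, and without that array the difference was -0.01.

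Set against the pool, SDHD-ESR readings at an unadjusted 0.05 on the high side were found for 3 of the 8 spots, those of Sdha, Sdhaf1 and Sdhaf2 by limma, against 10.3% of all spots. Their limma adjusted p was 0.148, 0.256 and 0.274, in that order. The count fell to 1 of 8, Sdha, against 9.4% of all spots, without SDHD-ESR replicate 1. It was also 1, Sdha again, without SDHD-ESR replicate 2 or 4 or without +/- replicate 2 or 3, with the replicate block and with each group's arrays alone. The share of all spots in these settings ran from 5.87% to 9.28%. In the other alternatives the count was 2 or 3. In +/- the count was 1 of 8, Sdha, against 13.2% of all spots. It was 0 without +/- replicate 3 or 4, with each group's arrays alone and with the ordinary test of each spot. Readings above the pool on all 8 arrays were found for 2 of the 8 spots, Sdha and Sdhaf2, against 8% of the 22801 spots with a value on all arrays. Ratios to the pool keep dye bias, and these counts are of few spots. The intervals of the other 5 genes are wide enough to hold changes in either direction, so small changes of these mRNAs were not detectable with 4 arrays a group.

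The sign of the difference turned between the slides for 5 of the 8 spots of these genes. It did not turn for Sdhd, for the first Sdhc spot (-1.32 on slide 1 and -0.49 on slide 2) or for the first Sdhb spot (0.60 and 0.005). The share of all spots whose sign turned in this way was not counted. On slide 1, SDHD-ESR minus +/- was 0.49 for Sdha, 0.83 for the second Sdhb spot, 0.22 for the second Sdhc spot, 0.54 for Sdhaf1 and 0.29 for Sdhaf2. On slide 2 it was -0.20, -0.54, -0.56, -0.15 and -0.21 for the same spots in the same order. All 5 were thus higher in SDHD-ESR on slide 1 and lower on slide 2. Without SDHD-ESR replicate 1, which leaves 1 SDHD-ESR array on slide 1, the slide 1 differences were 0.44, 0.75, 0.40, 0.32 and 0.21 for the same spots, all still above 0. The slide-by-genotype term had an unadjusted p of 0.00722 for the second Sdhb spot and between 0.0513 and 0.103 for the other 4, and none was called in limma (0 of 22801 spots, with 4956 at an unadjusted 0.05; adjusted p of 0.186 for the Sdhb spot). The array medians moved in the same way. With each array's median taken off, the differences of Sdha were 0.29 on slide 1 and 0.12 on slide 2. Those of Sdhaf1 were 0.33 and 0.18, and those of Sdhaf2 0.08 and 0.11. Those of the second Sdhb spot, 0.62 and -0.22, and of the second Sdhc spot, 0.01 and -0.23, still differed in sign. Without SDHD-ESR replicate 1 the centred slide 1 differences were 0.16 for Sdha, 0.04 for Sdhaf1 and -0.07 for Sdhaf2. They were then 0.47 for the second Sdhb spot and 0.12 for the second Sdhc spot. The part of the array medians in the slide differences was not tested.

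**Figure D3:**
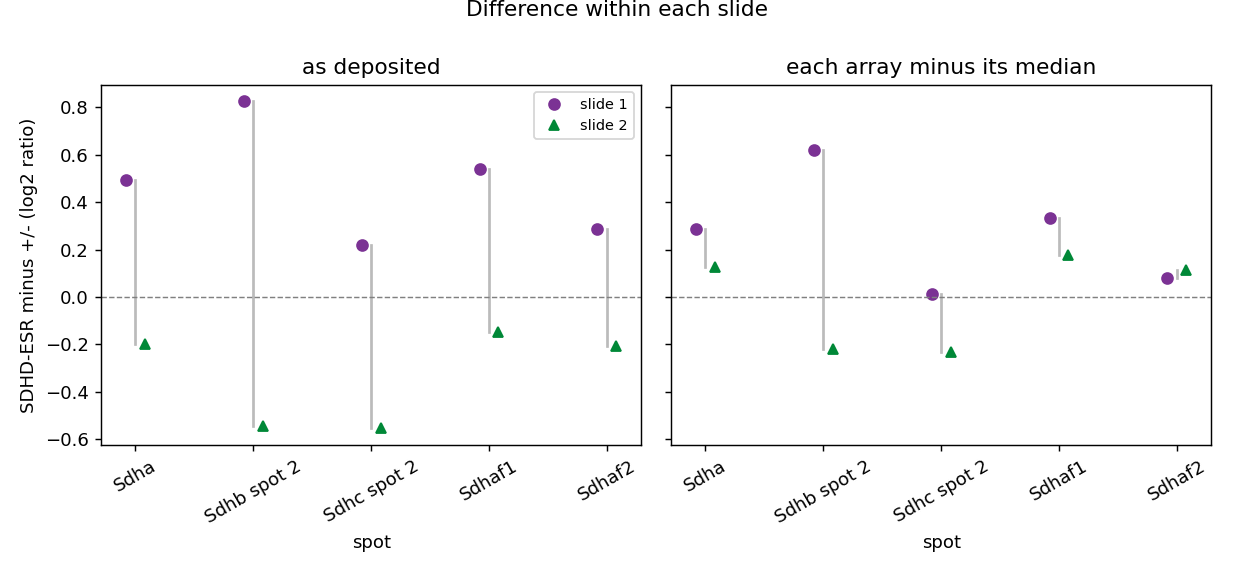
SDHD-ESR minus +/- (vertical axis, log2 ratio) within slide 1 (circles) and slide 2 (triangles), 2 arrays a group on each, for 5 spots of subunits and assembly factors (horizontal axis), with the values as deposited on the left and after each array's median was taken off on the right. As deposited, all 5 spots lie above 0 on slide 1 and below 0 on slide 2, and after centring Sdha, Sdhaf1 and Sdhaf2 lie above 0 on both.

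**Figure D4:**
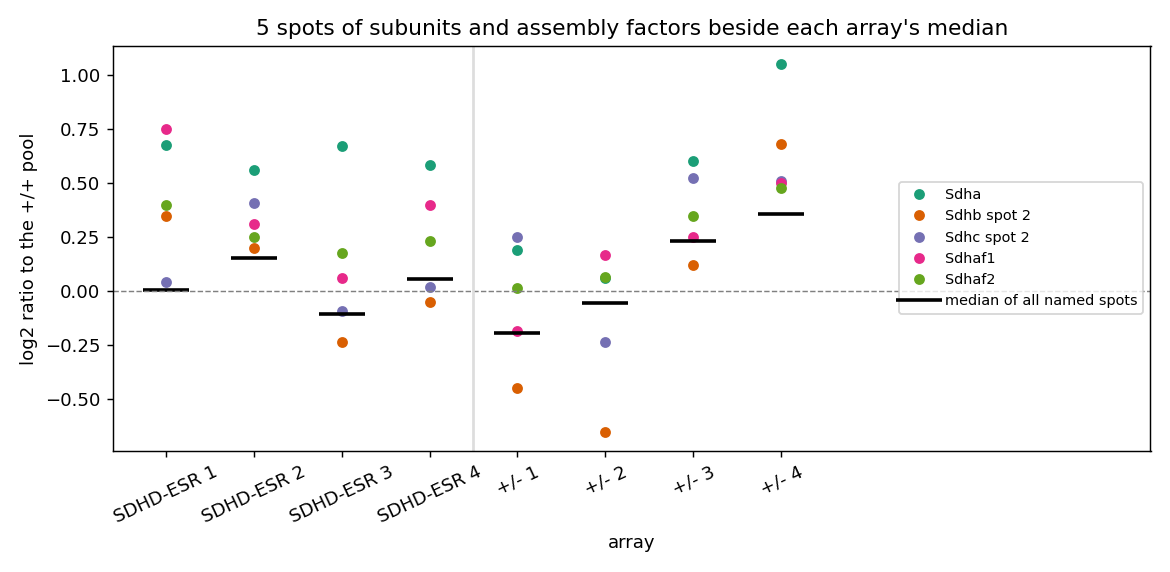
Log2 ratio to the +/+ pool (vertical axis) of 5 spots on each array (horizontal axis, SDHD-ESR arrays left), with a black bar at the median of all named spots of that array. The bars run from -0.20 on the array of +/- replicate 1 to 0.36 on that of +/- replicate 4, and Sdha lies above the bar on all 8 arrays.

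After centring, Sdhaf1 averaged 0.35 ± 0.27 in SDHD-ESR and 0.10 ± 0.10 in +/-, a difference of 0.26 (exact permutation p = 0.114), and Sdha averaged 0.60 ± 0.16 in SDHD-ESR and 0.39 ± 0.24 in +/-, a difference of 0.21 (exact permutation p = 0.2; SD, n = 4 each for both genes). For Sdhd centring changed little, with -5.35 ± 0.67 in SDHD-ESR and -1.18 ± 0.69 in +/-, and within slides its centred difference was -4.12 on slide 1 and -4.22 on slide 2. Over the 7 spots other than that of Sdhd the median difference was 0.14 as deposited, beside -0.06 over all spots. That median rests on single arrays: it was 0.00 without SDHD-ESR replicate 1 and ran from -0.02 to 0.30 as each array was left out in turn.

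Timm8b, whose start adjoins that of Sdhd and which was looked at because of that position, had a higher mean in SDHD-ESR than in +/-, within the spread of the arrays. It read 0.61, 0.19, 0.56 and 0.36 on the SDHD-ESR arrays, against 0.11, -0.28, 0.30 and 0.50 on the +/- arrays. The difference was 0.27 (SE 0.20; exact permutation p = 0.2), with a value of 0.48 on SDHD-ESR replicate 1 and a difference of 0.24 after its displaced lines were moved back.

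The other assembly factors known for this enzyme, Sdhaf3 and Sdhaf4, showed no difference that passed the test. Sdhaf4, which in yeast and fly assists the joining of the flavinated subunit to its partner, read 0.48, 0.45, 0.36 and 0.35 on the SDHD-ESR arrays, against -0.02, 0.18, 0.55 and 0.80 on the +/- arrays. Like Sdha it was tightly grouped in SDHD-ESR, inside the +/- range (difference 0.03, SE 0.20). Sdhaf3, on an unassigned line, differed by -0.04 (SE 0.23).

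A list of 13 measured genes covered enzymes, carriers and a receptor around succinate, and reached on to Fh1 and Mdh2 of the later cycle steps. Of these genes, 6 had a lower mean in SDHD-ESR and 7 a higher one than in +/-. In limma 0 of their 17 spots passed even an unadjusted 0.05. Their median difference was 0.00, beside -0.05 over all genes tested. Sucnr1, the succinate receptor, had the smallest p of the group (unadjusted 0.255), with a difference of -1.05 (SE 0.85) and no value on SDHD-ESR replicate 3. Its values ran from -2.44 to 0.45 in SDHD-ESR and from -1.43 to 0.97 in +/-. Suclg2, a subunit of the enzyme that makes succinate from succinyl-CoA, differed by 0.39 (SE 0.34), and Slc13a3, a plasma-membrane carrier of succinate and other dicarboxylates, by -0.30 (SE 0.28) in a displaced line. An Ogdh spot (2-oxoglutarate dehydrogenase) differed by -0.24 as deposited and by 0.01 with the displaced lines moved back.

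Of 16 measured genes for ubiquinone synthesis and for other enzymes that feed electrons to ubiquinone, 8 averaged lower and 8 higher, with a median difference of -0.05, and 1 of 30 spots passed an unadjusted 0.05. That spot was of Gpd2, the mitochondrial glycerol-3-phosphate dehydrogenase, which like complex II hands electrons to ubiquinone. It read -0.98, -0.80, -1.85 and -1.09 on the SDHD-ESR arrays, against 0.26, -1.31, 0.22 and 1.25 on the +/- arrays. The array of +/- replicate 2 lay among the SDHD-ESR arrays and the other 3 above all of them. The difference of -1.28 (SE 0.52) had an unadjusted p of 0.0412, an adjusted p of 0.953 in limma and an exact permutation p of 0.114. With the displaced lines moved back, SDHD-ESR replicate 1 read -0.30 and the difference was -1.11. A Chdh spot (choline dehydrogenase) differed by 0.56 (SE 0.29), a Coq8a spot by -0.45 (SE 0.29) and a Coq5 spot by 0.25 (SE 0.21), the last 2 genes serving ubiquinone synthesis, and all 3 overlapped between the groups.

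The other complexes of the chain gave no call either. Complex I had 18 genes lower and 18 higher in SDHD-ESR (median difference 0.00), complex III 2 lower and 7 higher (0.05), complex IV 5 and 7 (0.02) and complex V 4 and 10 (0.10), beside 11113 lower and 8209 higher of all genes tested (-0.05). Of their 109 spots, 1 passed an unadjusted 0.05 in limma, a complex IV spot that was lower, and 0 passed the adjusted one. Spots flat at 0 on at least 7 arrays were 13 of 44 in complex I, 4 of 24 in III, 5 of 17 in IV and 7 of 24 in V. On a flat spot 1 array can set the sign of the difference. The median over the complex V genes read 0.42 on SDHD-ESR replicate 1, but 0.002, 0.00003 and 0.12 on SDHD-ESR replicates 2, 3 and 4.

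Markers of other cells of the gland were set beside these values. Of the chromaffin and cortex markers little can be read, since 5 of 22 and 6 of 15 of their spots were flat at 0 on at least 7 arrays. Of the chromaffin genes 6 had a lower and 5 a higher mean in SDHD-ESR than in +/- (median difference -0.01). Of the cortex genes 5 were lower and 6 higher (0.11). The median over the chromaffin genes read 0.00 on every array of both groups, and that over the cortex genes 0.00 on every array but that of SDHD-ESR replicate 1 (0.28). Adipocyte markers had negative differences in 7 of 7 genes (median -1.34), and their median on an array ran from -3.39 to 0.57 in SDHD-ESR and from -1.96 to 1.34 in +/-. Macrophage markers did so in 8 of 9 genes (median -0.31), with array medians of -0.65 to 0.10 in SDHD-ESR and -0.15 to 0.36 in +/-, and endothelial markers in 5 of 6 (median -0.27; -0.10 to 0.33 in SDHD-ESR and 0.25 to 0.47 in +/-). Schwann cell markers did so in 4 of 4 (median -0.15; -0.09 to 0.59 in SDHD-ESR and 0.11 to 0.61 in +/-). None of the 85 marker spots of all 6 lists was called in limma. At an unadjusted 0.05, 5 were lower and 1, that of the cortex marker Mc2r (0.55), was higher, beside 787 lower and 507 higher of all 28073 spots. Of the 5, 4 were among the 15 macrophage spots, those of Tyrobp (-0.77), Fcer1g (-0.60), Adgre1 (-0.69) and C1qa (-0.68), named after their values were seen and all in lines that were in place. The part of a changed cell makeup in the values of the complex II genes was not tested.

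The patterns most like that of Sdhd over the 8 arrays were sought among the 22801 spots with a value on all of them, as a description without a test. The 5 highest Pearson correlations belonged to spots of Fgf1 (r = 0.96), Pla2g2e (0.96), Tnfaip8l2 (0.95), Gas1 (0.95) and Sox9 (0.94), but these moved far less than Sdhd: the mean of Tnfaip8l2 was -1.01 in SDHD-ESR and -0.16 in +/-, and that of Gas1 was 0.03 in SDHD-ESR and 0.70 in +/-. By distance, the nearest were Tex52, Zcwpw2, Wfdc2, Ccl8 and Gm6360, with root mean square differences from Sdhd of 2.23 log2 units or less. Even the nearest, Tex52, had means of -3.87 in SDHD-ESR and -1.80 in +/-, a smaller step between the groups than that of Sdhd. None of the 10 is a complex II gene. Points in these correlations share slides and the same +/+ pool, and the Sox9, Zcwpw2 and Ccl8 spots lie in displaced lines of SDHD-ESR replicate 1, where the r of Sox9 was 0.90 after the lines were moved back.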

How the data were processed

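Adrenal medulla RNA was measured on 8 two-color arrays (4 SDHD-ESR, 4 +/-), 1 value per spot over 45220 spots. As deposited, each value is a log ratio from the authors' image analysis, with no stated base or background correction, made with a GenePix scanner and the Multi-Experiment Viewer format per the labels and the study's methods. The base was taken as 2 because 3196 of 313878 values equalled the log2 of a whole number within 1e-06, against 31 for natural logs and 3 for log10. The sign was turned after a check of 19 genes, other than Sdhd, that the study lists as changed in the adrenal medulla. All 19 had the opposite deposited sign. For Esr1, among the strongest rises the study lists, the deposited mean over the SDHD-ESR arrays was only -0.070. Whole numbers (9.54% to 15.6% of an array) were dropped as stand-ins for missing ratios. The deposited order is not that of the probe annotation, so spots were named through the grid's geometry. In that layout copies of an accession had a median SD of 0.156 over 387 accessions, against 0.626 or more in 4 other layouts. Of the spots, 12194 had no gene symbol.

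limma 3.58.1 (R 4.3.3; statmod 1.5.0, jsonlite 2.0.0) fitted group means to the 28073 named spots with at least 3 values in each group, with Benjamini-Hochberg adjustment over all of them. The fit was tested on simulated data with known changes. Exact permutation tests, on each of the 8 spots and on the other single values beside which one is given, used every split of the arrays with a value (70 for 8 arrays) and were two-sided. Each array is a separate pool of 2 mice. Values and figures were prepared in Python 3.11.15 (pandas 2.3.3, numpy 2.4.6, matplotlib 3.10.9), and genes and promoter windows came from RefSeq (GRCm38.p6). The members and lists were chosen with earlier results of these data known. All 6 members are named, with up to 4 genes of each neighboring list by the smallest unadjusted p and the 5 spots most like Sdhd by r and by distance. Timm8b was added for its position after its values could be seen, as were the partner spots Sdhd was read against. Alternatives were array centring, quantile normalization, other filters, slide and replicate blocks, robust eBayes and an ordinary t-test for each spot. The study's methods name a t-test in general but do not say which test was used for the arrays. Further alternatives were means over a gene's spots, 2 treatments of the displaced lines, whole numbers from -2 to 2 kept, each group alone, and each array left out. Intensities and depth are not in the files used here, so the number of arrays limits the precision.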

Additional observations from a re-analysis of the deposited data

Results flagged for a closer look

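In 2 of the 16 groups of 4 arrays, 1 array stood farther from the other 3 than Dixon's 95% critical value for 4 values allows. The first Sdhb spot read 1.19 on SDHD-ESR replicate 1, with a gap to the next array of 0.998 of the group's range, and the first Sdhc spot read -2.81 on the same array, with a gap of 0.889 of the range. Chance puts about 1 in 20 groups past this limit. The Sdhb spot lies in a displaced line of that array and the Sdhc spot in an unassigned one. The other 3 SDHD-ESR arrays read 0.00 for the first Sdhb spot and from 0.08 to 0.45 for the first Sdhc spot.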

How the results depend on the processing

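The Sdhd difference, SDHD-ESR minus +/-, stayed negative in all 20 alternatives, from -4.62 to -3.94. Its adjusted p lay between 0.0639 and 0.803 in limma and was 0.927 with the ordinary t-test, so it was called in none. Against the pool, Sdhd in SDHD-ESR ran from -5.57 to -5.04 and was called in 15 of 21 alternatives. It lost the call at an unchanged -5.33 with the ordinary t-test (adjusted p = 0.339, over a range of 0.000806 to 0.339) and with each group's arrays alone (0.295). Without 1 array it ran from -5.48 to -5.04, and the call was lost without SDHD-ESR replicate 1 (-5.44), 3 (-5.35) or 4 (-5.48) or +/- replicate 3 (-5.33). In +/- it ran from -1.36 to -0.71, with no call.

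Counts of called spots moved more. SDHD-ESR minus +/- gave 1 with centring. SDHD-ESR against the pool, 12 as reported, gave 232 with centring, 455 with quantile normalization and 51 with displaced lines moved back. The count was 3 with gene means, and 1 with at least 2 values a group, the slide block or the ordinary t-test. With each group alone it was 0, and without 1 array 0 to 2. +/- against the pool gave 609 with quantile normalization and 0 to 3 without 1 array. The cause was not tested.

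Replicate numbers did not pair the samples (r of same-numbered arrays between -0.0044 and 0.12, and not every array was most like its own number). With the replicate number as a block, Sdhd was -4.23 (adjusted p = 0.257) in SDHD-ESR minus +/-, -5.33 (0.0175) in SDHD-ESR and -1.09 (0.261) in +/- against the pool, and 1 spot was called in SDHD-ESR against the pool.

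Of 434 values of other members' spots, 16 changed sign, none of them called. With lines moved back, the first Sdhb spot was -0.0003 in SDHD-ESR minus +/- and -0.0033 in SDHD-ESR against the pool. With aligned lines only, SDHD-ESR minus +/- of Sdhaf2 was -0.0074, and in SDHD-ESR against the pool the first Sdhb spot was -0.0004 and the first Sdhc spot 0.231. With gene means the second Sdhc spot was -0.218 there. Without 1 array, SDHD-ESR minus +/- ran from -0.033 to 0.122 for Sdhaf2 and from -0.053 to 0.393 for the second Sdhb spot. SDHD-ESR against the pool ran from -0.0004 to 0.398 for the first Sdhb spot, -0.030 to 0.165 for the second, -0.853 to 0.231 for the first Sdhc spot and -0.0113 to 0.155 for the second. In +/- against the pool, the second Sdhb spot ran from -0.328 to 0.117.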
